A study of Mus musculus with 6 samples.

Results

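Amino acid transporters of the solute carrier (Slc) families 1, 3, 7, 36, 38 and 43 were compared between mammary epithelial cells of mice with and without Cre recombinase that carry a floxed insulin receptor gene. The members are the probe sets whose gene symbol names 1 gene and begins with Slc1a, Slc3a, Slc7a, Slc36a, Slc38a or Slc43a, which gave 45 probe sets of 40 genes out of 20805 named genes on the array. One of these symbols, Slc7a6os, belongs to a gene on the strand opposite Slc7a6 that encodes no transporter, so it was set aside and left 44 probe sets of 39 transporter genes. Of these, 36 probe sets of 31 genes were bright enough to be tested. Slc3a1, Slc7a7 and Slc7a10 are covered here by probe sets that name a further gene as well, and the rule leaves them out.

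The control group was 3 IRfl/fl Cre- mice, numbered 1, 2 and 4, and the other group was 3 IRfl/fl Cre+ mice, numbered 5, 6 and 7, described in the labels as having diminished insulin receptor. All 6 females carried the floxed allele on both chromosomes, had been mated with CD1 males, and were killed on day 13.5 of pregnancy, when alveolar cells begin secretory differentiation. Cre was expressed from a BLG promoter, that of the milk protein beta-lactoglobulin, so recombination depends on the activity of that promoter. Which cells had recombined was not measured here. Cells were freed from the gland with collagenase, and RNA of each mouse was hybridised to its own MoGene 1.0 ST array (Affymetrix). The sources used here give no age, strain background or litter for the mice. Values are the authors' RMA (robust multi-array average) intensities in linear units, and changes are Cre+ minus Cre- on the log2 scale with the standard error (SE) of limma's moderated fit, n = 3 and 3.

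Amino acids enter cells through carriers grouped by classical transport systems. System L carries large neutral amino acids without sodium, systems A, ASC and N carry small neutral amino acids and glutamine with sodium, system y+ carries arginine and lysine, and system XAG- carries glutamate and aspartate. Several Slc7 carriers reach the cell surface only when bound to the heavy subunit encoded by Slc3a2. In the mammary gland these carriers supply the epithelium with the amino acids from which milk proteins are made, and some members of Slc36 and Slc38 work instead on the lysosome, where amino acid supply is sensed by the growth-regulating kinase mTORC1.

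The array medians lay between 28.4 and 29.3 linear units, and arrays correlated pairwise at 0.980 to 0.995 across probe sets. Insr, the floxed gene, read 106, 104 and 122 linear units in Cre- cells and 55.2, 47.7 and 71.2 in Cre+ cells at probe set 10576692, a fall of 0.95 (SE 0.15) with limma adjusted p = 0.0231. The second Insr probe set, 10576696, read 80.4, 77.6 and 86.7 against 56.2, 53.6 and 61.2 (-0.52, SE 0.09, adjusted p = 0.0285). The labels do not say whether either probe set lies in the deleted part. An adjusted p under 0.05, the threshold throughout, was reached by 706 (4.17%) of the 16921 probe sets tested, of which 362 (2.14% of those tested) were falls and 344 (2.03%) rises. The labelled cell type was checked against markers. All 17 luminal alveolar markers were bright enough to be tested. In Cre+ cells 13 of them fell and 0 rose, with summed intensities of 25975 to 29288 linear units against 38805 to 42279 in Cre- cells. Of 15 basal myoepithelial markers 6 rose and 0 fell, with sums of 5400 to 5665 against 2918 to 4317. Fibroblast marker sums were 1197 to 1597 in Cre+ cells and 565 to 1325 in Cre- cells, with 2 of 10 tested markers higher past the test. None of 12 T and B lymphocyte markers passed in limma (0 also at an unadjusted p under 0.05 and with the authors' p-values), but their sum was highest on Cre- 1, at 2187, and on Cre+ 7, at 1384, against 391 to 618 on the other arrays. Luminal hormone-sensing sums were 686 to 755 in Cre- cells and 744 to 1044 in Cre+ cells. The sum of 1044 was that of Cre+ 7, where the marker Ly6a alone read 554, against 148 to 266 on the other arrays. Of the 12 tested markers in the hormone-sensing list, 1 (Cd14) was lower past the test and 0 were higher. Whether Cd14 marks hormone-sensing cells here was not tested. The list otherwise leaned upward, with 10 of 12 changes above 0. At an unadjusted p under 0.05 there were 5, with 4 above 0 and 1 below. Endothelial sums were 509 to 889 and 664 to 915, and adipocyte sums 554 to 908 and 785 to 1167. None of their 10 and 9 tested markers passed in limma (1 and 4 at an unadjusted p under 0.05, 0 with the authors' p-values). The part of these markers in the changes below was not tested. In a bulk sample, fewer cells of a type and less RNA per cell cannot be told apart.

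Slc43a2 was the one transporter of the 6 families that passed the test. It encodes LAT4, a sodium-independent carrier that lets branched-chain amino acids, phenylalanine and methionine pass down their gradient in either direction. The gene fell to 41.7% of its Cre- level. Of the 36 tested transporter probe sets, 1 fell and 0 rose, against 4.17% called among all tested probe sets (2.14% as falls and 2.03% as rises). At an unadjusted p under 0.05 there were 12 of 36, with 8 below 0 and 4 above, against 20.0% of all tested probe sets (9.83% below 0 and 10.2% above). At 14 of these 36 probe sets the 3 Cre+ arrays lay apart from the 3 Cre- arrays, lower at 9 and higher at 5, against 25.7% of all tested probe sets (12.7% with Cre+ lower). The authors' deposited p-values, adjusted over the same probe sets, called 0 transporters and 34 probe sets in all.

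Slc43a2 is shown with the sequence around its start because it carries the only call. RefSeq (GRCm38.p6) gives it 2 transcription starts on chromosome 11, on the plus strand. The window of the upstream start is chr11:75531444-75531743 and that of the downstream start is chr11:75531862-75532161. Each line holds 250 bases before the start in lower case and 50 bases from the start on in capitals.
Slc43a2 upstream start: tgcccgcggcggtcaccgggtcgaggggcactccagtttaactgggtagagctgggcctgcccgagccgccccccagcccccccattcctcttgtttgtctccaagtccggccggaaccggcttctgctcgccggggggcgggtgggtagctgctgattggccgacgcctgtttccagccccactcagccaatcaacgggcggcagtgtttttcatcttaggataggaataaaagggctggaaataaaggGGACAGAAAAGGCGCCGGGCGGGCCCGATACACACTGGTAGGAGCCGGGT
Slc43a2 downstream start: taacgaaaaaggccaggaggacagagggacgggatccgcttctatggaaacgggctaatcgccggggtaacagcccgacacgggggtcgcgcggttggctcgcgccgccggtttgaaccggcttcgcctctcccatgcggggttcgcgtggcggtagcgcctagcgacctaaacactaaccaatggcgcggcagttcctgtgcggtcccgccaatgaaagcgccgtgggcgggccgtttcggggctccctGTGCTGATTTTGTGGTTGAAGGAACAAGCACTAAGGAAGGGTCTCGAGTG
The windows contain 63.7% and 62.7% G and C. Both were searched on both strands for TTCNNNGAA, the core bound by Stat factors, TGTTTAC, bound by FoxO factors, and TGATGNAA, the element bound by ATF4, and held no match to any of them. Among all 32851 promoter windows of this length, 8.3% held the first, 3.65% the second and 3.97% the third. Of 35 windows of 28 transporter genes in the same RefSeq table, 4 held the Stat core (Slc1a3, Slc38a9, Slc7a1 and Slc7a11), 2 held the FoxO letters (Slc36a3 and Slc7a11) and 2 held the ATF4 letters (Slc1a4 and Slc7a11).

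On the arrays, Slc43a2 read 207 in Cre- 1, 285 in Cre- 2 and 262 in Cre- 4, and 133 in Cre+ 5, 109 in Cre+ 6 and 77.2 in Cre+ 7, in linear units. All 3 Cre+ arrays lay below all 3 Cre- arrays, with the highest Cre+ array well under the lowest Cre- array. The mean was 251 ± 40.3 (SD, n = 3) in Cre- cells and 106 ± 27.9 (SD, n = 3) in Cre+ cells. Slc43a2 fell by 1.26 (SE 0.20, 95% interval -1.74 to -0.79) on the log2 scale, 2.40-fold, with limma adjusted p = 0.0240. In the authors' deposited table its ratio was 0.42 with p = 0.0069. Leaving out Cre- 2 gave a limma adjusted p = 0.0881, Cre- 4 gave 0.0618, Cre+ 5 gave 0.0546 and Cre+ 6 gave 0.0880, each of which ends the call, although the change itself stayed between -1.44 and -1.05 whichever array was left out. Without Cre- 1 and Cre+ 7, the arrays with the most lymphocyte marker signal, it was -1.18 (adjusted p = 0.00563), an alternative chosen after seeing the data.

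**Figure D1:**
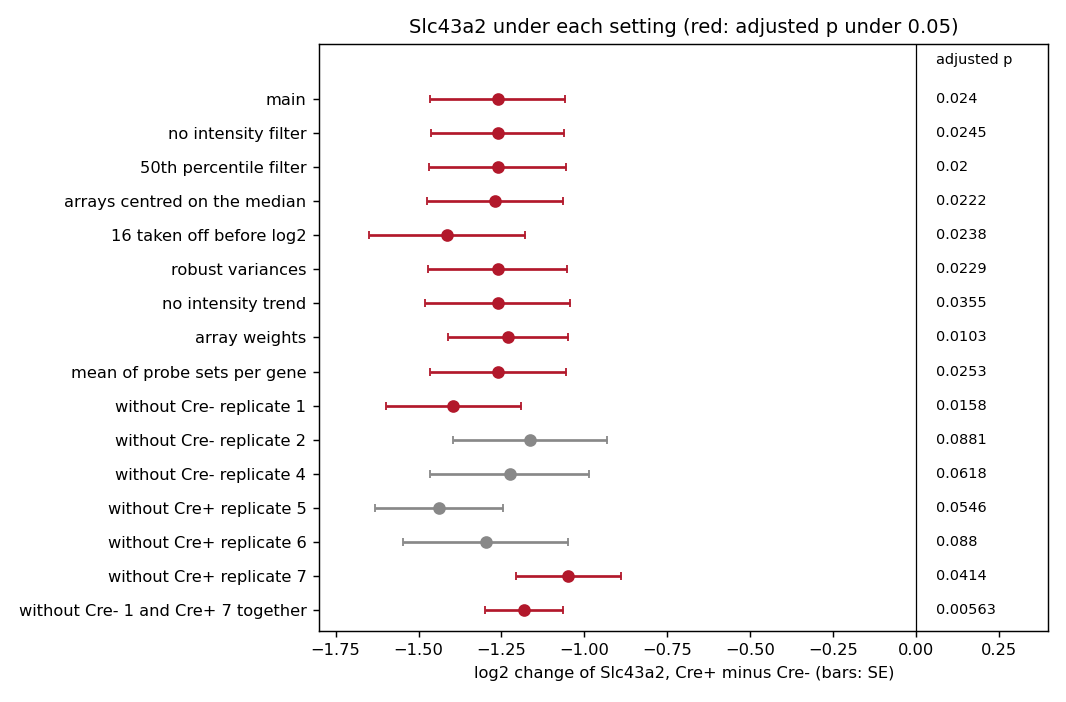
The log2 change of Slc43a2 between Cre+ and Cre- cells (horizontal axis, points, with bars for 1 SE) under the main setting and each alternative that refits the model, with the adjusted p at the right and in red where it is under 0.05. All points lie left of 0, between -1.44 and -1.05, and 4 settings that leave out 1 array lose the call.

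Of the 17 luminal alveolar markers, 13 fell in the same comparison and 4 did not pass (Kit, Csn1s2a, Csn2 and Aldh1a3). Their changes ran from -3.69 (Lalba, a subunit of the enzyme that makes lactose) to 0.08 (Aldh1a3), with a median of -0.66, and the -1.26 of Slc43a2 lay within that range, between Ltf (-1.48) and Btn1a1 (-1.18).

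**Figure D2:**
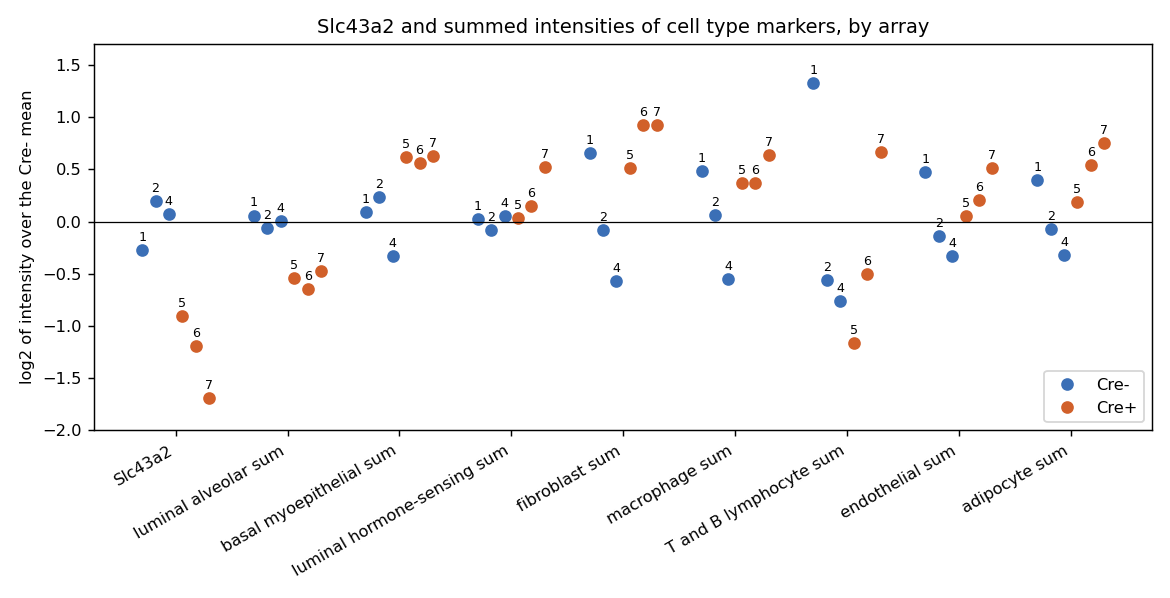
Slc43a2 and the summed intensity of each cell type's tested markers on the 6 arrays, as log2 of the intensity over the mean of the Cre- arrays (vertical axis), with blue points for Cre- mice, orange points for Cre+ mice and the mouse number above each point. Slc43a2 and the luminal alveolar sum are lower and the basal myoepithelial sum is higher on all 3 Cre+ arrays, and the lymphocyte sum is highest on Cre- 1 and Cre+ 7.

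The other system L carriers gave no such change. Slc7a5 encodes LAT1, the exchanger that brings in leucine and other large neutral amino acids against intracellular glutamine. It read 561, 536 and 539 in Cre- cells and 600.5, 498 and 498 in Cre+ cells, and the groups overlapped. Its change was -0.04 (SE 0.09, 95% interval -0.25 to 0.17, limma adjusted p = 0.864), so a fall of the size of Slc43a2's lies outside the interval. Slc3a2, the heavy subunit that LAT1 needs, read 603, 511 and 681 in Cre- cells and 556, 507 and 513 in Cre+ cells, a change of -0.18 (SE 0.11, interval -0.44 to 0.08). Slc7a8 (LAT2, -0.02, interval -0.19 to 0.15) and Slc43a1 (LAT3, -0.03, interval -0.09 to 0.03) were dim, at means of 26.7 to 27.1 and 23.2 to 23.7 linear units, where folds are compressed on this scale.

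Slc43a3, the third Slc43 gene, lies near Slc43a1 on chromosome 2 with 1 gene between them and is known in human cells as a carrier of purine bases rather than amino acids. It read 74.6, 61.1 and 50.3 in Cre- cells and 85.6, 84.3 and 113 in Cre+ cells, so every Cre+ array was above every Cre- array. Its change of 0.61 (SE 0.17), 1.53-fold, did not pass (limma adjusted p = 0.0945). It passed without Cre- 1, its Cre- array nearest to the Cre+ values (0.76, limma adjusted p = 0.0411). It also passed without Cre- 1 and Cre+ 7 together (0.62, adjusted p = 0.0313) and with array weights (0.58, adjusted p = 0.0420). Slc43a1 stayed near the bottom of the intensity range in both groups.

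**Figure D3:**
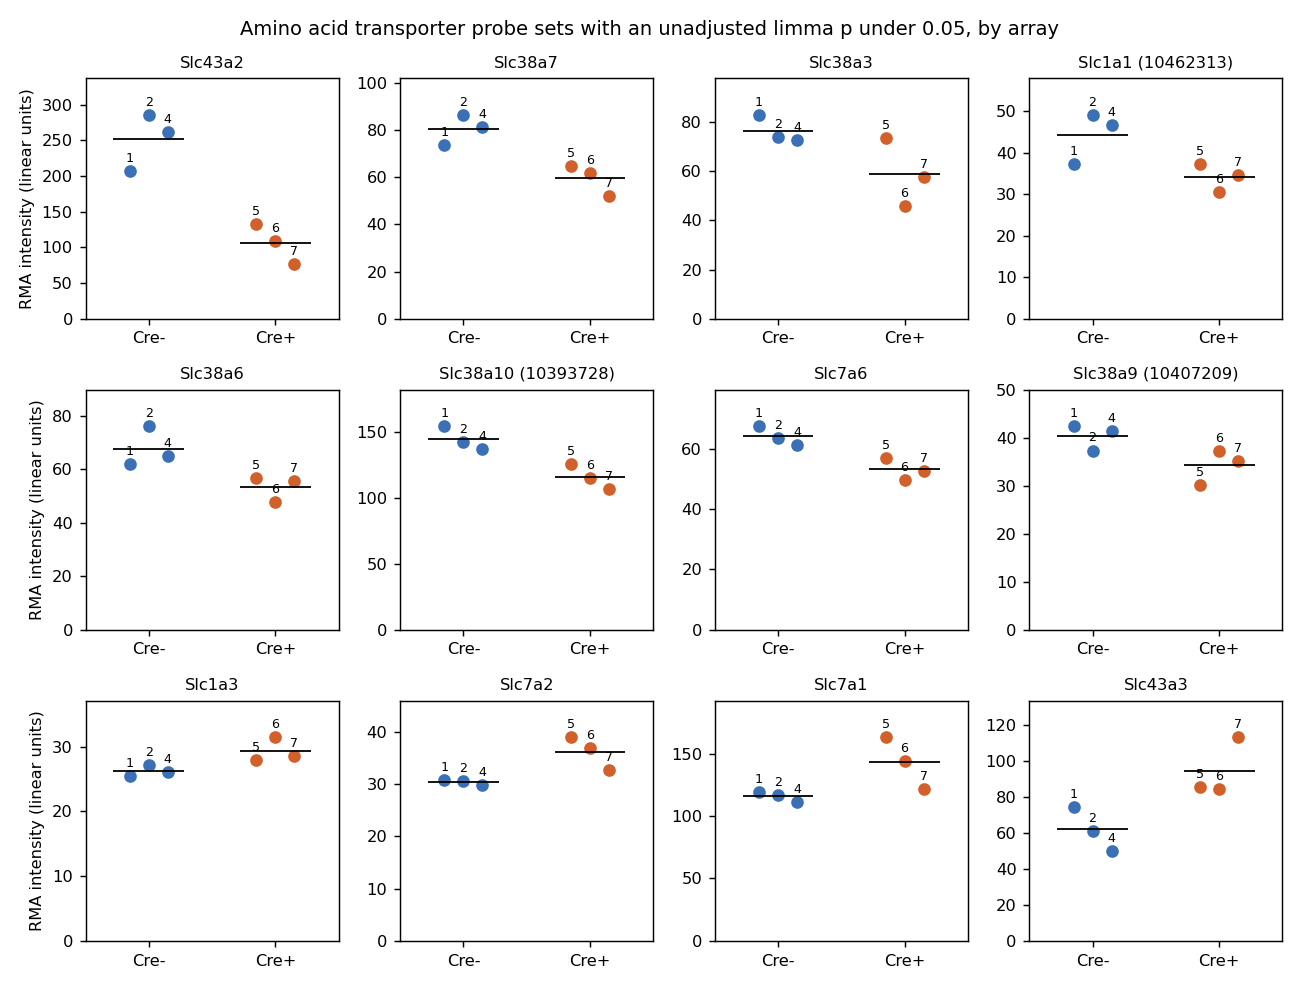
RMA intensity in linear units (vertical axes, each from 0) on each array for the 12 transporter probe sets with an unadjusted limma p under 0.05, ordered from the lowest to the highest log2 change, with the mouse number above each point and a line at each group mean. Slc43a2 shows the widest gap between Cre- (blue) and Cre+ (orange) arrays, and Slc43a3, Slc7a1, Slc7a2 and Slc1a3 are the 4 that were higher in Cre+ cells.

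The Slc38 members outside systems A and N had 4 of the 8 lower probe sets with an unadjusted p under 0.05. Slc38a7, a glutamine exporter of the lysosome in human cells, read 73.8, 86.5 and 81.3 in Cre- cells and 64.7, 62.0 and 52.1 in Cre+ cells. These groups did not overlap, and its change of -0.44 (SE 0.11, limma adjusted p = 0.0744) did not pass, except with array weights (-0.44, adjusted p = 0.0352). Slc38a10, reported to carry glutamine, glutamate and aspartate, read 155, 143 and 137 against 126, 115 and 107 at probe set 10393728, again without overlap. Its change there was -0.32 (SE 0.09, adjusted p = 0.0972), and at its other probe set, 10383309, it was -0.02 at a mean of 22.5 to 22.8 linear units, close to the level below which nothing was tested.

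Slc38a6 read 61.8, 76.1 and 65.0 in Cre- cells and 56.9, 47.7 and 55.5 in Cre+ cells, without overlap (-0.34, SE 0.11, limma adjusted p = 0.146). Slc38a9 encodes the lysosomal arginine sensor upstream of mTORC1, and its probe sets had changes of -0.19 (10407192) and -0.24 (10407209), neither past the test. At the second, Cre- arrays read 42.4, 37.3 and 41.3 and Cre+ arrays 30.2, 37.3 and 35.2. The groups did not overlap there, but Cre- 2 and Cre+ 6 differed by less than the last digit shown. Slc38a8 was at 0.02, and Slc38a11 was too dim to be tested.

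System A and system N carry glutamine and small neutral amino acids. Slc38a2 (SNAT2), a system A carrier whose transcript rises when amino acids are scarce, read 529.5, 497 and 628 in Cre- cells and 507, 496 and 476 in Cre+ cells at probe set 10431894, with overlapping groups (-0.15, SE 0.10, interval -0.38 to 0.07). Its other probe set, 10431912, was at -0.01 and dim. Slc38a1 (SNAT1), next to Slc38a2 on chromosome 15, read 58.8, 66.9 and 31.2 in Cre- cells and 68.0, 76.1 and 73.6 in Cre+ cells at probe set 10431874. That is a change of 0.55 (SE 0.26, limma adjusted p = 0.297), carried mostly by the low value of Cre- 4, since without that array it was 0.21. At its other probe set, 10431872, Slc38a1 read 30.6, 42.0 and 23.0 against 29.8, 27.4 and 27.5, a change of -0.13. The Slc38a1 probe sets disagree in sign, and Cre- 4 was the lowest of the 6 arrays at both.

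Among system N genes, Slc38a3 (SNAT3), a glutamine carrier best known from liver and kidney, read 82.9, 74.0 and 72.6 in Cre- cells and 73.6, 45.7 and 57.5 in Cre+ cells. Cre+ 5 lay within the Cre- range, and the change of -0.40 (SE 0.17, limma adjusted p = 0.233) did not pass. Slc38a5 was at -0.01 and dim. Slc38a4, the third system A gene and the neighbour of Slc38a2, was too dim to be tested.

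All 3 cationic amino acid carriers of system y+ had changes above 0, and none passed. Slc7a1 (CAT1), the general importer of arginine and lysine, read 119, 117 and 111 in Cre- cells and 163, 144 and 121 in Cre+ cells, without overlap (0.29, SE 0.11, limma adjusted p = 0.203). Slc7a2 (CAT2), an arginine importer known from macrophages and liver, read 30.8, 30.6 and 29.8 against 39.0, 37.0 and 32.7, also without overlap (0.25, SE 0.07, adjusted p = 0.109). For both genes Cre+ 5 was highest and Cre+ 7 was nearest to the controls. Slc7a2 passed with array weights (0.29, adjusted p = 0.0385) and without Cre- 1 and Cre+ 7 (0.33, adjusted p = 0.0478). The macrophage marker sums were 1647, 1227 and 806 linear units on Cre- 1, 2 and 4, and 1518, 1522 and 1826 on Cre+ 5, 6 and 7. Of 12 such markers 2 rose, C1qb and C1qc, against 2.03% rises among all tested probe sets. The part of macrophages in the change of Slc7a2 was not tested. Slc7a3 (CAT3) was at 0.06, at 22.4 to 23.4 linear units. Slc7a4 and Slc7a14, which resemble the cationic carriers in sequence, were at -0.11 and -0.06. Slc7a4 read 42.6, 45.4 and 41.0 in Cre- cells and 40.3, 40.2 and 39.1 in Cre+ cells.

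Slc7a6 encodes y+LAT2, a partner of Slc3a2 that exchanges arginine for neutral amino acids and sodium. It read 67.4, 63.6 and 61.1 in Cre- cells and 57.0, 49.7 and 52.6 in Cre+ cells, without overlap, and its change of -0.27 (SE 0.09, limma adjusted p = 0.143) did not pass. Slc7a6os, from the opposite strand beside it, was at 0.07 (SE 0.08). Slc7a11, the light subunit of the cystine and glutamate exchanger xc-, read 31.6, 31.7 and 36.7 against 35.7, 26.5 and 28.1, and its groups overlapped (-0.16, SE 0.12). Slc7a12, Slc7a13, Slc7a15 and Slc7a9 were too dim to be tested. Slc7a9, of system b0,+, read 20.8, 21.3 and 21.3 against 21.6, 23.4 and 21.4, Slc7a12, of system asc, 19.9, 20.2 and 20.4 against 20.1, 19.9 and 20.0, and Slc7a15 21.5, 22.0 and 21.6 against 21.1, 21.9 and 21.2.

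The ASC carriers exchange alanine, serine and cysteine. Slc1a5 (ASCT2), which also imports glutamine, read 63.2, 54.7 and 55.0 in Cre- cells and 54.3, 45.5 and 49.0 in Cre+ cells, a narrow separation with a change of -0.22 (SE 0.10, limma adjusted p = 0.299). Slc1a4 (ASCT1) overlapped, at 96.6, 116 and 103 against 124, 91.2 and 95.6 (-0.03, SE 0.13).

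Among the glutamate and aspartate carriers, Slc1a1 (EAAC1), a widely expressed epithelial and neuronal carrier, read 37.2, 49.1 and 46.6 in Cre- cells and 37.2, 30.5 and 34.6 in Cre+ cells at probe set 10462313. Cre- 1 and Cre+ 5 were nearly equal there, and the change was -0.37 (SE 0.12, limma adjusted p = 0.143). It passed without Cre- 1, its Cre- array nearest to the Cre+ values (-0.49, limma adjusted p = 0.0406), and without Cre- 1 and Cre+ 7 (-0.50, adjusted p = 0.0463). The dim probe set 10466920 was at -0.01. Slc1a3 (GLAST), a glial glutamate carrier, read 25.4, 27.2 and 26.1 against 27.9, 31.4 and 28.6, a change of 0.16 (SE 0.06, adjusted p = 0.163) near the bottom of the range. Slc1a2 and Slc1a7 were at -0.04 and 0.06, and Slc1a6 was too dim to be tested.

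The proton-coupled Slc36 carriers, of which Slc36a1 (PAT1) exports small amino acids from lysosomes, showed the smallest spread of changes among groups with 3 or more tested genes. The group means of the tested Slc36 genes were only 22.8 to 39.6 linear units, toward the bottom of the range, where folds are compressed. Slc36a1 was at -0.08, Slc36a2 at -0.02 and Slc36a4 at -0.02, with adjusted p of 0.570 to 0.912 in limma, and all 3 pairs of groups overlapped. Slc36a4, the brightest of them, read 40.5, 41.3 and 37.0 in Cre- cells and 40.3, 36.0 and 40.6 in Cre+ cells. Slc36a1, Slc36a2 and Slc36a3 stand in a row on chromosome 11, and Slc36a3 was too dim to be tested.

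**Figure D4:**
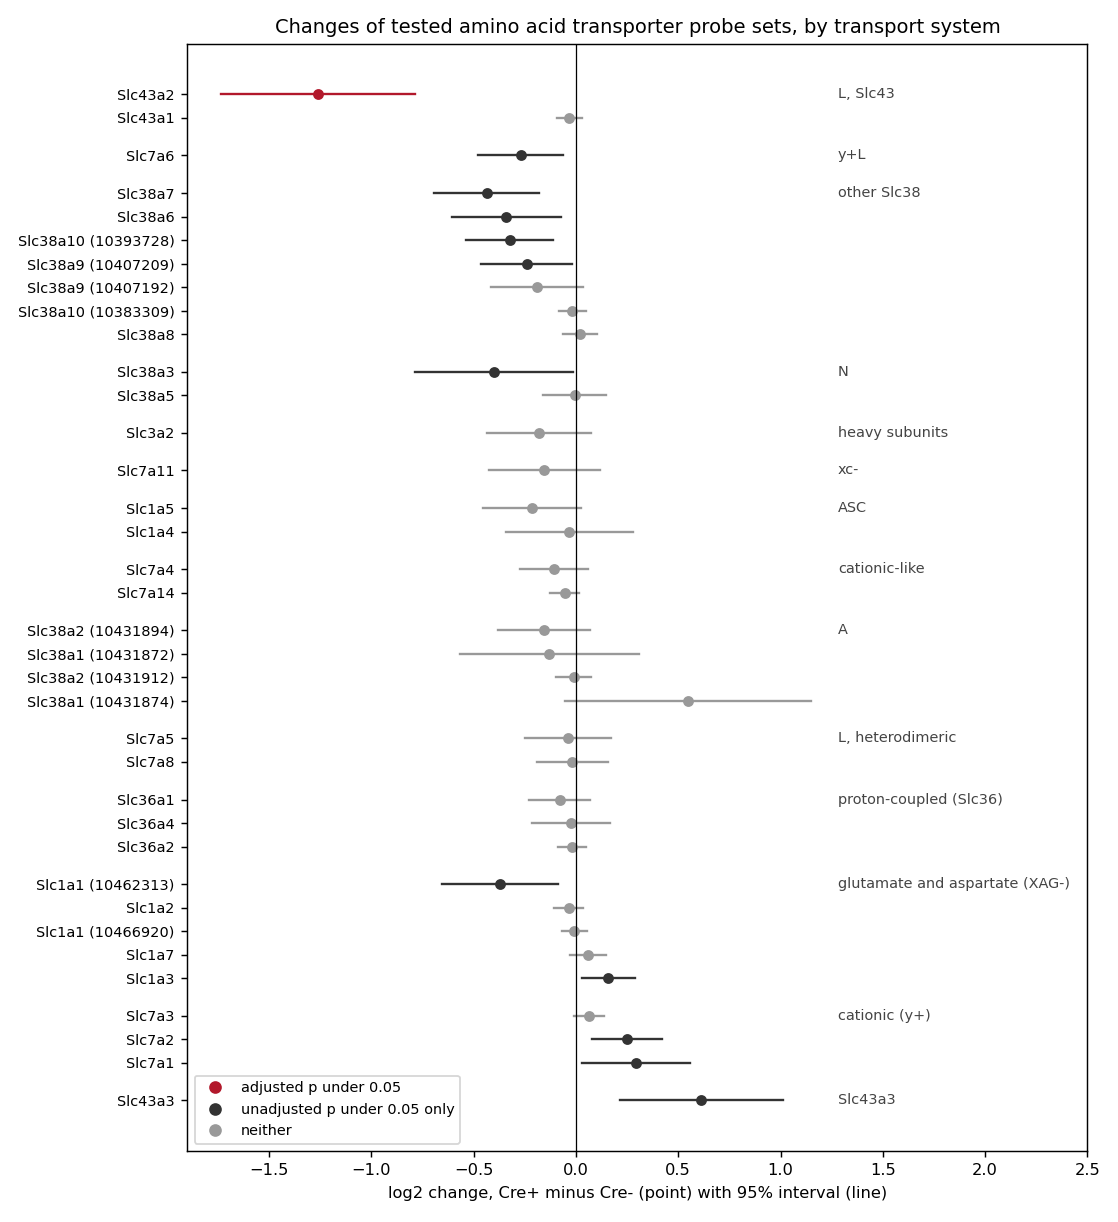
Log2 change between Cre+ and Cre- cells (points, horizontal axis) with its 95% interval (lines) for the 36 tested transporter probe sets, grouped by transport system, whose name stands at the right of the first probe set of each group. Red marks an adjusted p under 0.05, dark grey an unadjusted p under 0.05 and light grey neither. Slc43a2 alone is red, at -1.26, and the highest points are Slc43a3, at 0.61, and Slc38a1 at probe set 10431874, at 0.55.

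Taking each gene by its brightest probe set, 23 of 31 tested transporters had a change below 0 (74.2%, against 49.0% of 15363 tested genes), with a median of -0.04 against 0.00 over all genes. Much of the family was dim. The 10 genes at or under 30 linear units had changes of -0.06 to 0.16, and the 21 genes above it had a median of -0.16, with 17 below 0 (81.0%, against 51.4% of 10805 genes above that level, whose median was -0.01). Over the 31 genes, the median deviation from each gene's own mean was -0.08 on Cre+ 6 and on Cre+ 7, 0.01 on Cre+ 5 and 0.02 to 0.04 on the Cre- arrays. Cre+ 6 and Cre+ 7 each held the lowest value of 10 genes. Cre- 4 held the highest value of 4 genes and the lowest of 6. It had the highest reading of the 6 arrays for Slc3a2, Slc38a2 and Slc7a11 and also for Asns, the asparagine synthetase gene (273, 271 and 427 in Cre- cells, 318, 269 and 282 in Cre+ cells). The same array had the lowest reading for Slc7a1 and for Atf4. Among the ATF4 response genes taken up below, Trib3, Pycr1, Sesn2, Phgdh, Atf3, Cebpg and Eif2ak3 also had their highest reading on Cre- 4. Mthfd2, Chac1 and Vldlr also had their lowest there.

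Other genes of amino acid handling were taken from 3 lists. Of 19 tested genes among 25 other amino acid, peptide and related carriers, 1 fell and 1 rose (7 at an unadjusted p under 0.05, with 4 above 0 and 3 below, and 0 with the authors' p-values). Over all tested probe sets 4.17% passed and 20.0% had an unadjusted p under 0.05. Ctns, which encodes the lysosomal cystine exporter cystinosin, read 98.5, 105 and 121 in Cre- cells and 69.1, 67.4 and 67.2 in Cre+ cells, a fall of 0.66 (SE 0.10, limma adjusted p = 0.0190). Slc6a8, the creatine carrier, read 42.7, 45.0 and 44.7 against 60.0, 59.4 and 54.6, a rise of 0.39 (SE 0.08, adjusted p = 0.0420). The groups overlapped at neither gene. The Ctns call ended when Cre- 2 (0.0692), Cre+ 5 (0.0771) or Cre+ 6 (0.0762) was left out, and the Slc6a8 call whichever array was left out (0.0648 to 0.149), without the intensity filter (0.0525), with median centring (0.0501) and without Cre- 1 and Cre+ 7 (0.0518). Slc15a2, the peptide carrier PEPT2, was at -0.77 (SE 0.23, adjusted p = 0.118), the third smallest p of the list.

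Of 27 tested genes of mTORC1 amino acid sensing, 1 fell and 0 rose (7 at an unadjusted p under 0.05, all below 0, and 0 with the authors' p-values), against 4.17% of all tested probe sets past the test and 9.83% below 0 at an unadjusted p under 0.05. Sesn3, a sestrin, from a family that restrains mTORC1, read 202, 239 and 257 in Cre- cells and 138, 126 and 148 in Cre+ cells, a fall of 0.76 (SE 0.11, limma adjusted p = 0.0190), a call that ended when Cre- 2 (0.0820), Cre+ 5 (0.0824) or Cre+ 6 (0.0783) was left out. Lamtor2, on the array as Robld3, a subunit of the lysosomal anchor of mTORC1, was at -0.31 (SE 0.08, adjusted p = 0.0802), and Flcn, the folliculin gene, at -0.26 (SE 0.09, adjusted p = 0.150). Their list had a median of -0.07.

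Of 25 tested genes of the ATF4 response, which amino acid shortage induces, 0 passed in limma (6 at an unadjusted p under 0.05, with 2 above 0 and 4 below, and 0 with the authors' p-values), against 4.17% and 20.0% of all tested probe sets. The 3 with the smallest p were Vldlr (0.59, SE 0.14, adjusted p = 0.0580), a lipoprotein receptor, Eif2ak3 (-0.29, SE 0.08, adjusted p = 0.0853), the kinase PERK, and Cth (0.27, SE 0.08, adjusted p = 0.115), a cysteine-producing enzyme. The list's median was 0.02 against 0.00 over all genes. Atf4 itself was at 0.25 (SE 0.11, adjusted p = 0.279).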

How the data were processed

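The deposited intensity of each probe set was, per the labels, an RMA value from Expression Console over core exons; the sources used here name no software version, build or annotation. Values were linear (18.7 to 10919), and log2 was taken. The deposited p-value and ratio (fold) columns are the authors' comparison, a t-test per the file headers; recomputation from the deposited intensities matched 100% of the p-values within 2e-04 and 100% of the ratios within 0.01. The authors' group means and errors were not used. Of 28853 probe sets, 22984 named 1 gene, and the 16921 whose mean log2 intensity reached the 30th percentile of all probe sets (22.4 linear) were tested. The files give no detection call. Cre+ was compared with Cre- by the moderated test of limma (version 3.58.1, under R 4.3.3) with a mean-dependent prior variance; p-values were two-sided and adjusted by Benjamini and Hochberg over every probe set tested. In data simulated with normal noise of each probe set's own spread, it recovered 62% of shifts of 0.5 on the log2 scale and 90% of shifts of 1. Of the simulated calls 3.18% were false. Changes of the size of most members here can thus be missed. Alternatives were no filter or a 50th percentile filter, median centring, 16 subtracted from every intensity, robust or untrended variances, array weights, gene means, the authors' p-values and omission of single arrays, or of Cre- 1 with Cre+ 7. List genes were matched through RefSeq symbols and synonyms. Members, lists and alternatives were chosen with earlier results of these data known. Values by array are given for members with an unadjusted p under 0.05 and for the brightest of each transport system, for all genes past the test in the 3 lists, and otherwise where stated; Slc38a1 and Asns were added after their values were seen. List genes are those with the 3 smallest p, beside Atf4 and the ATF4 response genes highest or lowest on Cre- 4. The precision is limited by 3 arrays a group; no batch is labelled.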

Additional observations from a re-analysis of the deposited data

How the results depend on the processing

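No paired analysis was possible because the groups share no mouse number. The number of transporter probe sets called, 1 in the main setting, was 4 with array weights (Slc38a7, Slc43a2, Slc43a3 and Slc7a2), 0 with the authors' p-values and 0 to 3 when single arrays were left out. Leaving out Cre- 1 and Cre+ 7 together gave 4. No count over all tested probe sets is given here for that setting, so this 4 has no background to be read against. Over all tested probe sets the count of 706 became 1437 with array weights, 34 with the authors' p-values and 46 to 781 when single arrays were left out, lowest without Cre+ 5. The members' median change of -0.04 was -0.16 with the 50th percentile filter, which tests 21 brighter genes, -0.11 with 16 taken off every intensity, and -0.117 to -0.0437 when single arrays were left out. The change of Insr, -0.95, ranged from -1.11 to -0.82 when single arrays were left out, with the call lost in 4 of 6 omissions, and was -0.94 with adjusted p = 0.138 by the authors' values. Values close to 0 changed sign for Slc7a5 (0.027 with array weights, 0.025 without Cre- 1 and Cre+ 7), and when single arrays were left out for Slc7a5 (-0.131 to 0.0045), Slc1a4 (-0.167 to 0.052), Slc36a4 (-0.0723 to 0.031) and Slc38a1 at 10431872 (-0.344 to 0.092), all with adjusted p far from the threshold. The causes were not tested. Of 381 values of 24 named probe sets under alternatives, 340 kept their direction and side of the threshold, mostly uncalled probe sets that stayed uncalled. Of the rest, 10 changed sign, 8 gained a call and 23 lost one. All 23 losses fell on Slc43a2, Ctns, Slc6a8 and Sesn3, the only calls among the 24, so the tally does not measure how stable those calls are. With 3 arrays a group and folds compressed near the bottom of the range, changes of dim carriers are poorly resolved.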

Other observations

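The 6 probe sets that name a transporter beside another gene were left out of the comparison, and their signal cannot be assigned to either gene. The probe set naming Oxa1l and Slc7a7 read 38.7, 40.3 and 34.9 linear units in Cre- cells and 35.3, 33.6 and 36.7 in Cre+ cells. That naming Prepl and Slc3a1 read 85.3, 88.8 and 81.2 against 85.4, 74.1 and 85.4, and that naming Lrp3 and Slc7a10 read 28.5, 30.4 and 25.4 against 28.3, 30.4 and 27.0. The authors' deposited table gives ratios of 0.93, 0.96 and 1.02 for these, and the groups overlapped at all 3. The other 3 were dimmer, with means of 21.5 to 24.5 linear units. In the same deposited table, the second probe set naming Slc3a1 and Prepl had a ratio of 1.02, the second naming Slc7a10 and Lrp3 had 1.02, and the one naming Slc1a1 with 4430402I18Rik and Ppapdc2 had 1.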
